A study of Homo sapiens with 7 samples.

Results

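The genes described here are 55 members of the Wnt pathway among the 28517 named entries whose RNA was counted in NGP and in lines derived from it. NGP is an established line of human neuroblastoma, a childhood tumour of the sympathetic nervous system, and the derived lines carry mutations in ARID1A, which encodes a subunit of the SWI/SNF family of chromatin remodellers. The 55 genes were chosen by symbol, with earlier results of these data known. They comprise all WNT (19) and FZD genes, DKK1 to DKK4, the SFRP genes, and AXIN1, AXIN2, NKD1, NKD2, LEF1, TCF7, TCF7L1, TCF7L2, RNF43, ZNRF3, LGR4, LGR5, SP5, NOTUM, LRP5, LRP6, CTNNB1 and APC. The groups were ARID1A-/- line 1 (2 libraries), ARID1A-/- line 2 (2 libraries), an ARID1A+/- line (1 library) and control NGP cells (2 libraries). All were grown in RPMI 1640 medium with 10% fetal bovine serum and 0.5 µg/ml puromycin. Each group of 2 had a library prepared by SMARTer Universal Low Input chemistry and another prepared by KAPA mRNA HyperPrep, which was also used for the ARID1A+/- line. The labels give neither the position of the mutations nor whether a line is a single clone, and with 1 control line the genotype cannot be told apart from other differences between lines. Nor do they say that paired libraries stem from different cultures, and the p-values may therefore reflect technical spread alone.

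Wnt proteins are secreted lipid-modified ligands that bind Frizzled receptors together with the co-receptors LRP5 and LRP6. In the canonical branch this stops a complex built on AXIN and APC from marking β-catenin (CTNNB1) for destruction, and β-catenin then switches on genes through the DNA-binding factors LEF1, TCF7, TCF7L1 and TCF7L2. Several of the genes it switches on, among them AXIN2, NKD1, NOTUM, RNF43, ZNRF3 and DKK1, encode inhibitors of the pathway and so form feedback loops. Wnt signals act in the formation of the neural crest, the embryonic tissue from which neuroblastoma arises.

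Total counts per library lay between 24445301 and 43644361, so that 1 count on a transcript of 1 kb was worth 0.0229 to 0.0409 RPKM (counts scaled to transcript length and library total). ARID1A RNA itself had 16.7 and 17.2 RPKM in line 1, 14.2 and 13.8 RPKM in line 2, 19.9 RPKM in the ARID1A+/- line and 22.3 and 22.0 RPKM in control cells. The message was lower in both ARID1A-/- lines but still present, and since the mutations are not located it does not check the protein. By the test used below, its fall was called in line 2, at -0.70 ± 0.11 on the log2 scale (SE; edgeR adjusted p = 0.0092). In line 1, at -0.38 ± 0.11, it was not called (SE; edgeR adjusted p = 0.069). Of 12 sympathoadrenal markers 9 exceeded 1 RPKM in all 7 libraries, while the catecholamine enzyme TH stayed under 0.46 RPKM. Of 6 Schwann cell markers 5 stayed under 1 RPKM in all libraries, and all 5 endothelial markers did. Of 9 fibroblast markers 6 exceeded 1 RPKM in every library, FAP was at 0 throughout and COL1A2 at most at 0.0336 RPKM. The summed level of the fibroblast list was 224 and 246 RPKM in line 1, 65.3 and 61.9 RPKM in line 2, 111 RPKM in the ARID1A+/- line and 100.01 and 101.14 RPKM in control cells, so the sum was high in line 1 and low in line 2. Most of it was COL1A1 in line 1 and control cells, with 156 and 171 RPKM in line 1, 30.3 and 19.9 RPKM in line 2, 17.1 RPKM in the ARID1A+/- line and 60.2 and 62.6 RPKM in control cells. The other markers did not all follow it, since DCN had 4.02 and 3.74 RPKM in line 2 against 0.301 and 0.0326 RPKM in control cells, and LUM 3.25 and 3.42 RPKM in line 2 against 2.04 and 1.72 RPKM in control cells, both higher in line 2. The part of these markers in the results that differ between the lines was not tested. In bulk RNA, fewer cells expressing a gene and less of its RNA per cell cannot be told apart.

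Of the 55 members 30 passed the filter of a mean of at least 0.5 RPKM over the 6 control and ARID1A-/- libraries, and 24 stayed under 0.5 RPKM in all 7 libraries. The most abundant were the secreted inhibitor DKK1 and the gene of β-catenin itself. CTNNB1 had 51.7 and 80.1 RPKM in line 1, 39.0 and 66.4 RPKM in line 2, 65.6 RPKM in the ARID1A+/- line and 42.7 and 62.9 RPKM in control cells, where in this and all later lists of a pair of values the SMARTer library stands before the KAPA library. Its level moved more with the kit than with the genotype, being lower in each SMARTer library than in its KAPA repeat. All tests below therefore included a term for the kit. Only 7 members reached a mean of 10 RPKM in control cells, and the ligands were the lowest group, with a median over the 19 genes of 0.0892 RPKM there.

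**Figure D1:**
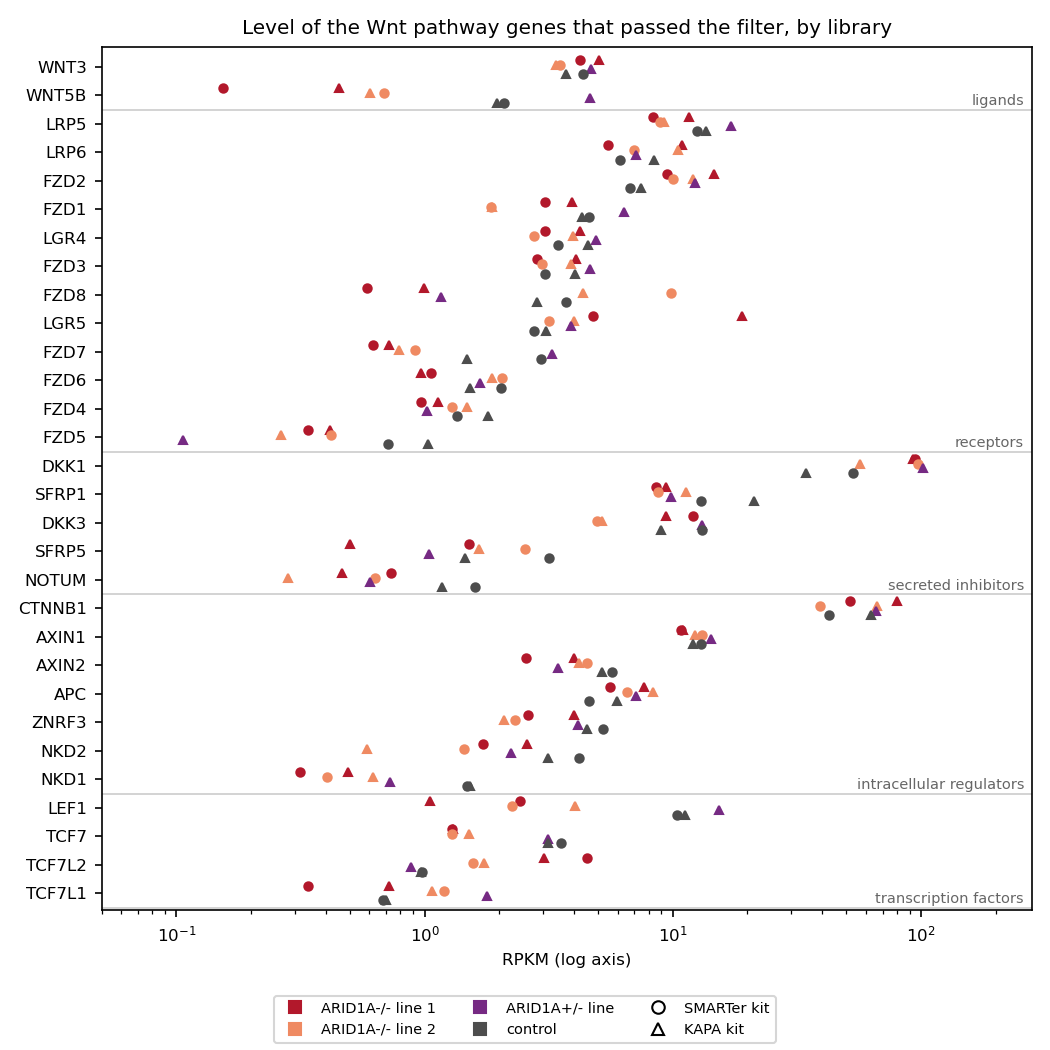
RPKM on a log axis (horizontal) of the 30 Wnt pathway genes that passed the filter, grouped by role (vertical); each symbol is 1 library, colour gives the line and shape the kit. DKK1 and CTNNB1 lie highest, and LEF1, TCF7 and NKD1 have all ARID1A-/- libraries left of both control libraries.

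On the mean of both ARID1A-/- lines against control, 4 of the 30 members rose and 12 fell (edgeR quasi-likelihood test, Benjamini-Hochberg adjusted p under 0.05 over all 14711 kept genes). Over all kept genes the same test called 14.4%, with 4.72% higher and 9.68% lower. The median log2 fold change was -0.49 over the 30 members and 0.02 over all kept genes. The 4 that rose were DKK1, FZD2, TCF7L2 and APC, and the 12 that fell were WNT5B, FZD1, FZD5, FZD7, LRP5, SFRP1, NOTUM, NKD1, NKD2, ZNRF3, LEF1 and TCF7. Within a kit, 15 of the 30 lay below the control in 4 of 4 differences and 5 lay above it. The same count was not made over all kept genes, and both lines share the control libraries. Whether such agreement is unusual was therefore not tested. The calls rest on both control libraries and on the kit term. With the SMARTer control library left out edgeR called 0 members (15 had an unadjusted p under 0.05), with the KAPA control library left out it called 3, and without the kit term it called 4. Calls over all kept genes fell in each of these fits too, to 3.98% without the kit term, so the loss is not particular to the members. With all 6 libraries DESeq2 called 18 members and limma on log2(RPKM + 1) called 13. Over all kept genes these called 17.8% and 12.5%.

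Taken by line against the shared control, 3 members rose and 8 fell in line 1, where 13.2% of all kept genes were called, 4.77% higher and 8.41% lower. In line 2, 3 rose and 12 fell, where 14.2% of all kept genes were called, 5.53% higher and 8.63% lower. WNT5B, FZD7, SFRP1, NOTUM, NKD1 and TCF7 fell and DKK1 and FZD2 rose in each line taken alone. These single-line calls were not equally firm. That of NOTUM in line 1 was lost in 10 of 14 alternative fits. In line 2, FZD7 lost its call in 7 of 15, WNT5B in 6 of 14 and FZD2 in 6 of 15. DKK1 and SFRP1 each lost the line 2 call in 5 of 15 and NOTUM in 5 of 14. For NKD1 it was 1 of 14 in each line. No member was called in opposite directions. Against the control, FZD8 and LEF1 fell and TCF7L2 rose with a call in line 1 alone, and FZD1, FZD5, LRP5, DKK3, NKD2 and ZNRF3 fell and APC rose with a call in line 2 alone. A call in 1 line alone does not show that the lines differ, and the tests of that difference are given further on.

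**Figure D2:**
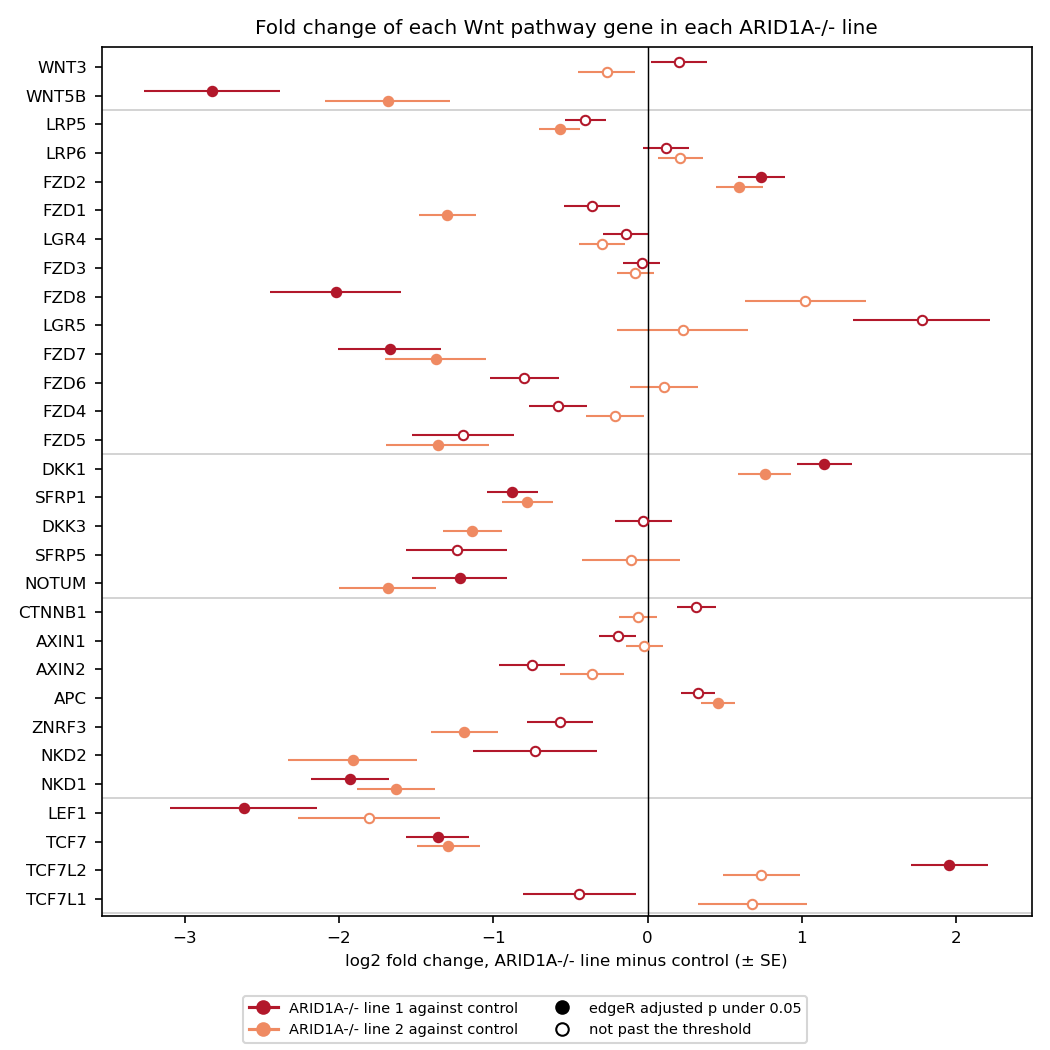
Log2 fold change of each of the 30 genes (horizontal, ± SE) in ARID1A-/- line 1 and in ARID1A-/- line 2 against the same control libraries; filled points passed the edgeR threshold. WNT5B reaches furthest to the left in line 1, at -2.82, and NKD2 in line 2, at -1.91, and DKK1 and FZD2 are filled right of 0 in both lines.

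Only 2 of the 19 ligands passed the filter, WNT3 and WNT5B. WNT3, a canonical ligand, was the most abundant, with 4.24 and 5.06 RPKM in line 1, 3.51 and 3.39 RPKM in line 2, 4.69 RPKM in the ARID1A+/- line and 4.36 and 3.72 RPKM in control cells. The groups overlapped, and its log2 fold change over both lines was -0.03 (95% interval -0.41 to 0.35). WNT5B, which mostly signals outside the β-catenin branch, had 0.154 and 0.453 RPKM in line 1, 0.683 and 0.604 RPKM in line 2, 4.65 RPKM in the ARID1A+/- line and 2.08 and 1.96 RPKM in control cells. All 4 ARID1A-/- libraries lay below both control libraries, and the ARID1A+/- library lay above them. On the log2 scale WNT5B fell by 2.25 ± 0.34 over both lines (SE; edgeR adjusted p = 0.0072), on 197 counts in 4 ARID1A-/- libraries against 414 counts in 2 control libraries. It made up 2.57% and 6.45% of the summed ligand RPKM in line 1, 11.2% and 12.0% in line 2, 42.5% in the ARID1A+/- line and 25.9% and 28.2% in control cells.

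Of the 17 ligands below the filter, 16 stayed under 0.5 RPKM in every library, and WNT1, WNT7A and WNT8A had no count in any of the 7. The highest of the 17 in control cells were WNT11, WNT9A and WNT4, with means of 0.304, 0.288 and 0.148 RPKM there. WNT5A, the closest relative of WNT5B, moved the other way at this low level. It had 0.444 and 0.436 RPKM in line 1, 0.451 and 0.326 RPKM in line 2, 0.411 RPKM in the ARID1A+/- line and 0.106 and 0.0784 RPKM in control cells. These values stand on 376 counts in the 4 ARID1A-/- libraries and 41 counts in the 2 control libraries, and the groups did not overlap. When the filter was dropped and 22631 entries were tested, WNT5A was higher by 2.16 ± 0.34 on the log2 scale (SE; edgeR adjusted p = 0.0017). In that test WNT10A, with 3 counts in the ARID1A-/- libraries against 20 in the control libraries, and WNT11, with 30 against 43, were called lower (edgeR adjusted p = 0.023 and 0.042).

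Among the 14 receptor genes 12 passed the filter, and on the mean of both lines 1 of them rose and 4 fell. FZD2 was the highest Frizzled gene in every library, and it rose. It had 9.44 and 14.7 RPKM in line 1, 10.1 and 12.1 RPKM in line 2, 12.3 RPKM in the ARID1A+/- line and 6.74 and 7.47 RPKM in control cells. Each of the 5 mutant libraries exceeded both control libraries, and the log2 fold change over both ARID1A-/- lines was 0.67 ± 0.14 (SE; edgeR adjusted p = 0.021). FZD7, a Frizzled receptor known from stem cells and embryonic tissue, had 0.621 and 0.717 RPKM in line 1, 0.918 and 0.791 RPKM in line 2, 3.25 RPKM in the ARID1A+/- line and 2.95 and 1.48 RPKM in control cells. It was low in all 4 ARID1A-/- libraries, and on the log2 scale it fell by 1.52 ± 0.27 (SE; edgeR adjusted p = 0.014). FZD5 stood at 0.339 and 0.416 RPKM in line 1, 0.419 and 0.264 RPKM in line 2, 0.106 RPKM in the ARID1A+/- line and 0.716 and 1.03 RPKM in control cells. The 5 mutant libraries all lay below both control libraries, with a log2 fold change over both ARID1A-/- lines of -1.28 ± 0.28 (SE; edgeR adjusted p = 0.026). The FZD5 call was lost in 7 of 14 alternatives.

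FZD1 had 3.06 and 3.92 RPKM in line 1, 1.86 and 1.88 RPKM in line 2, 6.35 RPKM in the ARID1A+/- line and 4.61 and 4.32 RPKM in control cells. It was lowest in line 2, and on the log2 scale it fell by 0.83 ± 0.15 over both lines (SE; edgeR adjusted p = 0.015). Of the co-receptors, LRP5 had 8.34 and 11.6 RPKM in line 1, 8.87 and 9.20 RPKM in line 2, 17.1 RPKM in the ARID1A+/- line and 12.5 and 13.7 RPKM in control cells, with a log2 fold change over both lines of -0.49 ± 0.11 (SE; edgeR adjusted p = 0.034). The LRP5 call was lost in 8 of 15 alternatives. LRP6 was at 0.17 (95% interval -0.14 to 0.47) on the same scale and did not pass the threshold. Nor did the R-spondin receptor LGR4, at -0.22 ± 0.13 (SE; edgeR adjusted p = 0.31), or FZD3, at -0.06 ± 0.10 (SE; edgeR adjusted p = 0.75), whose control means were 3.999 and 3.54 RPKM. LGR5, a receptor for R-spondins and a stem cell marker, stood apart in 1 library. It had 4.75 RPKM in the SMARTer and 19.0 RPKM in the KAPA library of line 1, 3.18 and 3.99 RPKM in line 2, 3.90 RPKM in the ARID1A+/- line and 2.76 and 3.08 RPKM in control cells. Although all 4 ARID1A-/- libraries lay above both control libraries, LGR5 did not pass the threshold (log2 fold change 1.00 ± 0.39, SE; edgeR adjusted p = 0.15).

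Summed over the 10 Frizzled genes, RPKM was 18.9 and 27.0 in line 1, 29.4 and 26.7 in line 2, 30.6 in the ARID1A+/- line and 25.2 and 24.5 in control cells, so that the groups overlapped. The makeup of that sum was less alike. FZD2 made up 49.9% and 54.6% of it in line 1, 34.2% and 45.4% in line 2, 40.4% in the ARID1A+/- line and 26.7% and 30.4% in control cells. FZD7 made up 3.29% and 2.66% in line 1, 3.12% and 2.97% in line 2, 10.6% in the ARID1A+/- line and 11.7% and 6.02% in control cells.

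**Figure D3:**
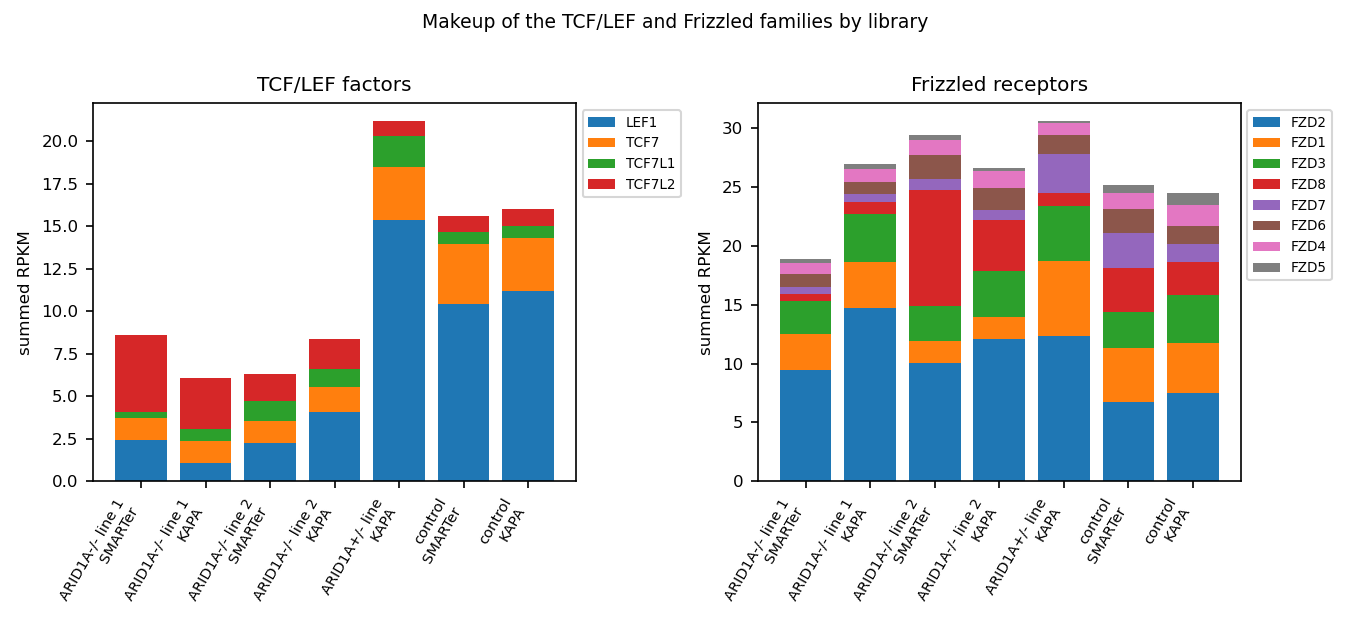
RPKM summed over the 4 TCF/LEF factors and over the Frizzled receptors that passed the filter (vertical), 1 stacked bar for each library and 1 colour for each gene. The TCF/LEF bars of the ARID1A-/- libraries are shorter and hold less LEF1 and more TCF7L2, whereas the Frizzled bars overlap in height and differ in makeup.

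Among the 9 secreted inhibitors in the files 5 passed the filter, and of these 1 rose and 2 fell over both lines. DKK1, which binds LRP5 and LRP6 and blocks the canonical branch, had 94.8 and 92.8 RPKM in line 1, 97.02 and 56.8 RPKM in line 2, 102 RPKM in the ARID1A+/- line and 53.2 and 34.5 RPKM in control cells. All 5 mutant libraries exceeded both control libraries, the KAPA library of line 2 least, and within each kit both lines lay above the control. DKK1 rose in each line, by 1.15 ± 0.18 in line 1 (SE; edgeR adjusted p = 0.0084) and by 0.76 ± 0.17 in line 2 (SE; edgeR adjusted p = 0.032) on the log2 scale. SFRP1, a decoy that binds Wnt ligands outside the cell, had 8.60 and 9.43 RPKM in line 1, 8.75 and 11.3 RPKM in line 2, 9.85 RPKM in the ARID1A+/- line and 13.0 and 21.2 RPKM in control cells. Here all 5 mutant libraries were below both control libraries, and on the log2 scale SFRP1 fell by 0.83 ± 0.14 over both ARID1A-/- lines (SE; edgeR adjusted p = 0.011).

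NOTUM, an enzyme that removes the lipid from Wnt proteins, had 0.730 and 0.467 RPKM in line 1, 0.631 and 0.281 RPKM in line 2, 0.601 RPKM in the ARID1A+/- line and 1.59 and 1.18 RPKM in control cells. It was lower in all 5 mutant libraries, and on the log2 scale it fell by 1.45 ± 0.26 over both ARID1A-/- lines (SE; edgeR adjusted p = 0.013), on 175 counts in 4 ARID1A-/- libraries against 218 counts in 2 control libraries. SFRP5, at -0.67 ± 0.27 (SE; edgeR adjusted p = 0.15), did not pass the threshold on the mean of both lines, nor did DKK3. Of the inhibitors below the filter DKK2, another DKK inhibitor, was unevenly spread, with 3 counts in line 1, 84 in line 2, 38 in the ARID1A+/- library and 26 in the control libraries. It was higher in line 2 than in line 1 when the filter was dropped (line 1 minus line 2, -4.66 ± 0.68 on the log2 scale, SE; edgeR adjusted p = 0.0017).

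Of the 8 intracellular regulators 7 passed the filter, and on the mean of both lines 1 rose and 3 fell. NKD1, a feedback inhibitor that binds Dishevelled, had 0.316 and 0.493 RPKM in line 1, 0.403 and 0.619 RPKM in line 2, 0.726 RPKM in the ARID1A+/- line and 1.48 and 1.52 RPKM in control cells. All ARID1A-/- libraries were at under 0.62 RPKM, and the ARID1A+/- library lay between them and the control. NKD1 fell, by 1.78 ± 0.21 on the log2 scale over both lines (SE; edgeR adjusted p = 0.0023), a call lost in 1 alternative, that without the SMARTer control library. Its relative NKD2 had 1.72 and 2.58 RPKM in line 1, 1.45 and 0.585 RPKM in line 2, 2.22 RPKM in the ARID1A+/- line and 4.18 and 3.14 RPKM in control cells, and on the log2 scale it fell by 1.32 ± 0.34 over both lines (SE; edgeR adjusted p = 0.046). The NKD2 call was lost in 6 of 15 alternatives. ZNRF3, a ubiquitin ligase that removes Frizzled from the cell surface, had 2.62 and 3.99 RPKM in line 1, 2.31 and 2.08 RPKM in line 2, 4.16 RPKM in the ARID1A+/- line and 5.22 and 4.51 RPKM in control cells. It was lowest in line 2, and on the log2 scale it fell by 0.88 ± 0.18 over both lines (SE; edgeR adjusted p = 0.021). RNF43, its partner, had at most 1 count in any library.

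AXIN2, the feedback scaffold often used as a readout of the canonical branch, had 2.55 and 4.005 RPKM in line 1, 4.501 and 4.21 RPKM in line 2, 3.43 RPKM in the ARID1A+/- line and 5.70 and 5.18 RPKM in control cells. All 5 mutant libraries were below both control libraries, but the fold change over both lines, -0.56 ± 0.18 on the log2 scale (SE; edgeR adjusted p = 0.086), did not pass the threshold. APC, a core part of the destruction complex, rose by 0.39 ± 0.10 on the log2 scale (SE; edgeR adjusted p = 0.042), with 5.56 and 7.68 RPKM in line 1, 6.53 and 8.33 RPKM in line 2, 7.13 RPKM in the ARID1A+/- line and 4.59 and 5.98 RPKM in control cells. The groups overlapped across kits, and its call was lost in 8 of 15 alternatives. AXIN1, at -0.11 (95% interval -0.36 to 0.14), and CTNNB1, at 0.13 (95% interval -0.13 to 0.39), did not pass the threshold.

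Of the 5 transcription factors 4 passed the filter, and of these 1 rose and 2 fell over both lines. LEF1 had 2.43 and 1.051 RPKM in line 1, 2.25 and 4.05 RPKM in line 2, 15.4 RPKM in the ARID1A+/- line and 10.4 and 11.2 RPKM in control cells. All 4 ARID1A-/- libraries were far below both control libraries and the ARID1A+/- library above them, and the 2 lines moved in opposite directions between the kits. On the log2 scale LEF1 fell by 2.62 ± 0.48 in line 1 (SE; edgeR adjusted p = 0.021), and line 2, at -1.81 ± 0.46, did not pass (SE; edgeR adjusted p = 0.053). TCF7 had 1.29 and 1.31 RPKM in line 1, 1.29 and 1.51 RPKM in line 2, 3.13 RPKM in the ARID1A+/- line and 3.54 and 3.15 RPKM in control cells. Its ARID1A-/- libraries were nearly level with each other, and it fell in both lines, by 1.36 ± 0.20 in line 1 (SE; edgeR adjusted p = 0.0078) and by 1.29 ± 0.20 in line 2 (SE; edgeR adjusted p = 0.0091) on the log2 scale. Exons of TCF7 share 210 bases (2.09%) with the antisense gene SKP1, which reached 115 RPKM, and those of LEF1 share 279 bases (5.20%) with LEF1-AS1, which reached 2.68 RPKM. For DKK1 the shared stretch with PRKG1-AS1 is 9.61% of its exons, and that gene reached 2.91 RPKM. Whether counting used the strand is not given in the sources used here, so reads in these stretches are uncertain.

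TCF7L2 moved the other way. It had 4.53 and 3.02 RPKM in line 1, 1.57 and 1.74 RPKM in line 2, 0.882 RPKM in the ARID1A+/- line and 0.977 and 0.965 RPKM in control cells. Every ARID1A-/- library was above both control libraries, line 1 most, and over both lines TCF7L2 rose by 1.35 ± 0.23 on the log2 scale (SE; edgeR adjusted p = 0.011). TCF7L1, often a repressor of the same targets, had 0.339 and 0.721 RPKM in line 1, 1.20 and 1.07 RPKM in line 2, 1.78 RPKM in the ARID1A+/- line and 0.683 and 0.701 RPKM in control cells, and did not pass the threshold. The summed RPKM of the 4 factors was 8.59 and 6.10 in line 1, 6.32 and 8.37 in line 2, 21.2 in the ARID1A+/- line and 15.61 and 15.99 in control cells. LEF1 made up 28.3% and 17.2% of that sum in line 1, 35.6% and 48.4% in line 2, 72.6% in the ARID1A+/- line and 66.7% and 69.9% in control cells. TCF7L2 made up 52.8% and 49.5% in line 1, 24.8% and 20.8% in line 2, 4.17% in the ARID1A+/- line and 6.26% and 6.04% in control cells. In line 1 TCF7L2 was thus the leading factor of the family by RPKM, while in line 2, in the ARID1A+/- line and in control cells it was LEF1. SP5, another transcription factor and target of the pathway, had at most 2 counts in any library.

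**Figure D4:**
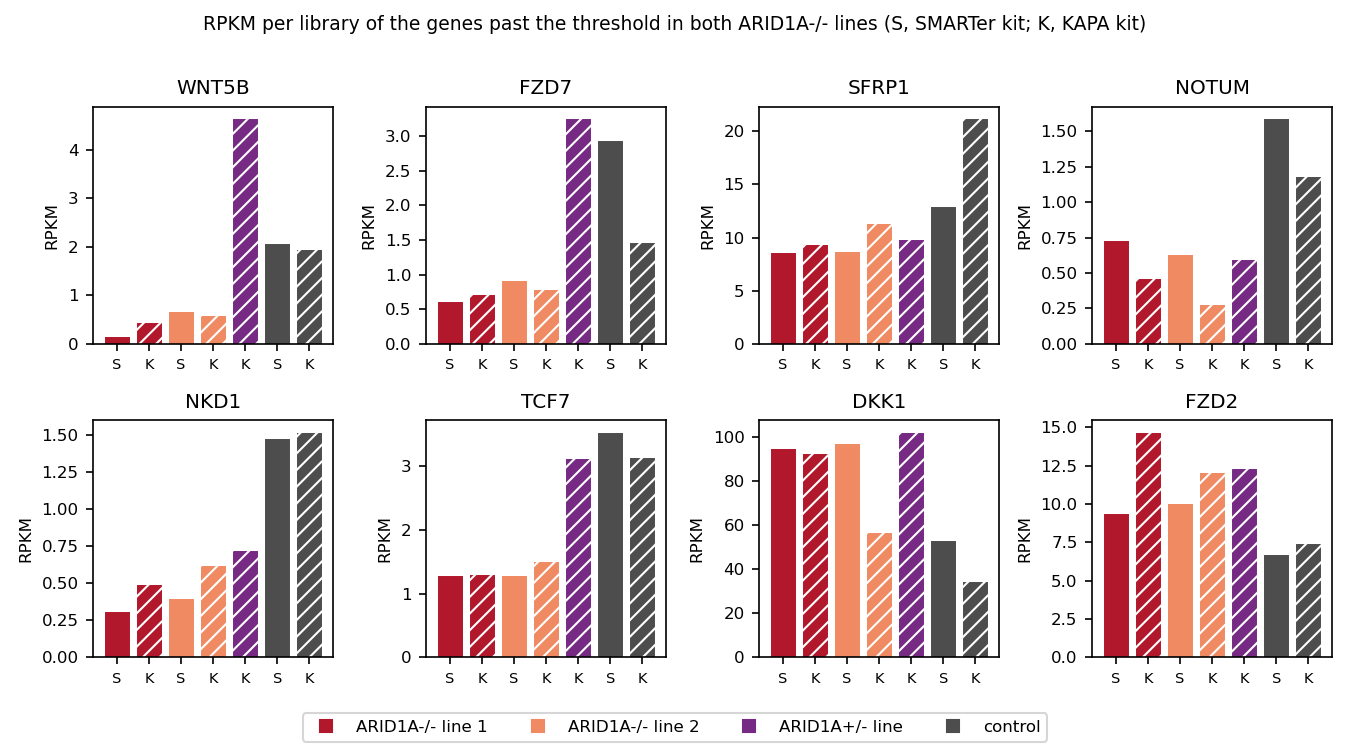
RPKM (vertical, from 0) in each library of the 8 genes past the threshold in both ARID1A-/- lines taken alone; plain bars are SMARTer and hatched bars KAPA libraries. WNT5B, FZD7 and TCF7 are low in the ARID1A-/- libraries and not in the ARID1A+/- library, whereas DKK1 and FZD2 are higher and SFRP1, NOTUM and NKD1 lower in all 5 mutant libraries than in control.

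Of the 10 feedback targets among the members, 8 passed the filter, 5 of these fell (NOTUM, NKD1, ZNRF3, LEF1 and TCF7) and DKK1 rose on the mean of both lines. Thus 75% of the 8 were called, beside 14.4% of all kept genes, 4.72% higher and 9.68% lower. The list was written with earlier results of these data known. The stretches before the start of DKK1 and of TCF7 are shown because these targets moved in opposite directions. They come from RefSeq (GRCh38.p14, plus strand), a build other than the hg19 to which the reads were aligned, run 5′ to 3′ and cover up to 250 bases before the start. Capitals mark the TCF/LEF motif, searched as CTTTGAT and CTTTGAA on both strands. NKD1, NOTUM and ZNRF3 had no entry, and that of LEF1 lies in annotated exons and is not shown. DKK1 lies at chr10:52314031-52314280, the upstream start of TCF7 at chr5:134115388-134115562 (175 bases outside annotated exons) and its downstream start at chr5:134123368-134123617.
DKK1: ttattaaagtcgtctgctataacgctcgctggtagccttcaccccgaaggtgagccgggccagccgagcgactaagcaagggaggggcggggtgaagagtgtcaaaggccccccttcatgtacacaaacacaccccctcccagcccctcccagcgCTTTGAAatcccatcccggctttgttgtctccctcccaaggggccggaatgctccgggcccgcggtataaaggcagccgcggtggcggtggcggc
TCF7 upstream start: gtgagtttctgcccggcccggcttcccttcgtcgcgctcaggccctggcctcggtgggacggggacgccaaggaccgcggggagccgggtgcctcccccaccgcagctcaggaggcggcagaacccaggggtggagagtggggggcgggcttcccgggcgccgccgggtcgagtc
TCF7 downstream start: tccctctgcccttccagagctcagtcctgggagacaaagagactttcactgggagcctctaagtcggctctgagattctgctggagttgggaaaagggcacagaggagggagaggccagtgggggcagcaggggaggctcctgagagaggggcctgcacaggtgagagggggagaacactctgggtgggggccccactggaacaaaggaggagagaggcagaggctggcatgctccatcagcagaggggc
DKK1 holds 1 match, CTTTGAA, 95 bases before its start, and the TCF7 windows hold neither CTTTGAT nor CTTTGAA on either strand. Looser forms of the motif were not searched, so this contrast between DKK1 and TCF7 covers the searched forms alone. Either motif occurs in 5.94% of the 35116 RefSeq windows of 250 bases, and among 37 members with an entry in DKK1 and SP5. A match is a run of letters and not a measured binding site.

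The ARID1A-/- lines were compared directly to ask in which members they differ. Of the 30 members 3 were higher and 2 lower in line 1 than in line 2, where 13% of all kept genes were called, 5.74% higher and 7.23% lower. FZD8, a Frizzled receptor, had 0.584 and 0.995 RPKM in line 1, 9.84 and 4.33 RPKM in line 2, 1.17 RPKM in the ARID1A+/- line and 3.72 and 2.85 RPKM in control cells. The control lay between the lines, and line 1 minus line 2 was -3.05 ± 0.44 on the log2 scale (SE; edgeR adjusted p = 0.0091), a call kept in all 15 alternatives. DKK3, a divergent member of the DKK family, had 12.1 and 9.42 RPKM in line 1, 4.95 and 5.16 RPKM in line 2, 13.1 RPKM in the ARID1A+/- line and 13.1 and 8.99 RPKM in control cells. It was low in line 2 alone, with a difference of 1.11 ± 0.19 (SE; edgeR adjusted p = 0.013).

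TCF7L2 was also higher in line 1 than in line 2, by 1.22 ± 0.24 on the log2 scale (SE; edgeR adjusted p = 0.021), and FZD1 by 0.94 ± 0.18 (SE; edgeR adjusted p = 0.019). FZD6 had 1.06 and 0.965 RPKM in line 1, 2.04 and 1.87 RPKM in line 2, 1.67 RPKM in the ARID1A+/- line and 2.03 and 1.53 RPKM in control cells, with a difference of -0.91 ± 0.22 (SE; edgeR adjusted p = 0.042) that was lost in 10 of 15 alternatives. The other 25 members did not pass the threshold between the lines. For WNT5B, for example, line 1 minus line 2 was -1.14 ± 0.45 (SE; edgeR adjusted p = 0.15).

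The ARID1A+/- line, with 1 library, was set beside the KAPA control library without a test, as a ratio of TMM-scaled counts with a 95% exact binomial interval that covers counting error only. Of 30 members with at least 0.5 RPKM in either library, 4 were at least 2-fold higher and 4 at least 2-fold lower, where 11.8% of all 15008 genes so compared passed that fold, 5.3% higher and 6.5% lower. DKK1 was 3.04-fold higher (interval 2.88 to 3.22), TCF7L1 2.61-fold (1.90 to 3.65), WNT5B 2.43-fold (2.01 to 2.95) and FZD7 2.26-fold higher (1.86 to 2.76). FZD5 was 9.45-fold lower (6.09 to 15.3), on 23 counts against 165. FZD8 was 2.38-fold lower (1.90 to 2.99). NKD1 was 2.04-fold lower (1.71 to 2.44), and SFRP1 was at 0.476 times its control level (0.446 to 0.509). With the mean of both control libraries in place of the KAPA library alone, 3 were higher and 5 lower.

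Set beside the ARID1A-/- values, which share the KAPA control library, the ARID1A+/- library had DKK1 and FZD2 high and SFRP1, NOTUM, NKD1 and FZD5 low like both ARID1A-/- lines. Of these FZD2, at 1.70 times the KAPA control (1.55 to 1.86), and NOTUM, at 0.522 times (0.347 to 0.778), did not reach 2-fold. FZD5 was not called in line 1 (edgeR adjusted p = 0.060). WNT5B, FZD1, FZD7, LRP5, LEF1, TCF7 and TCF7L2 did not follow the ARID1A-/- lines. FZD1 was 1.51 times its level in the KAPA control library (1.35 to 1.69) and LRP5 1.28 times (1.21 to 1.36). LEF1 was 1.41 times its level in the KAPA control library (1.31 to 1.51), TCF7 was 1.02 times (0.892 to 1.17) and TCF7L2 0.937 times (0.731 to 1.20).

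**Figure D5:**
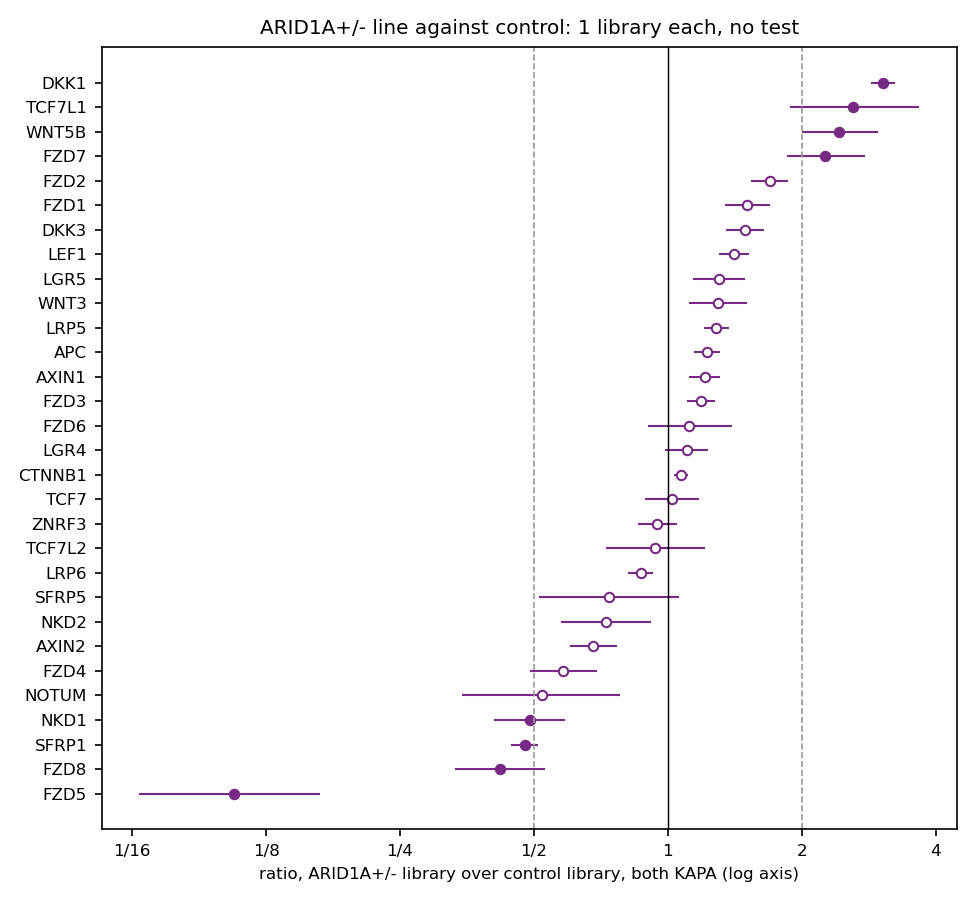
Ratio of the ARID1A+/- library to the control library, both made with KAPA (log axis, horizontal), for 30 Wnt pathway genes; lines are 95% exact binomial intervals for counting error and filled points lie at least 2-fold from 1. DKK1 has the highest ratio and FZD5 the lowest.

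The rest of the pathway was read from lists of 76 further genes, of which 60 passed the filter, and on the mean of both lines 9 rose and 7 fell, or 26.7% of the 60 beside 14.4% of all kept genes. Neither PORCN nor WLS, which lipid-modify and export Wnt proteins, passed the threshold. Of the 4 kept R-spondins and other secreted modulators 2 rose, RSPO4 and SOSTDC1, and FRZB, a decoy related to the SFRP genes, fell. Thus 75% of the 4 were called, beside 14.4% of all kept genes. RSPO4 was called in line 1, at 1.06 ± 0.18 (SE; edgeR adjusted p = 0.013), and not in line 2, at 0.45 ± 0.18 (SE; edgeR adjusted p = 0.15). Line 1 minus line 2 was not called for RSPO4, at 0.60 ± 0.18 (SE; edgeR adjusted p = 0.074). SOSTDC1 was called in line 2, at 2.03 ± 0.36 (SE; edgeR adjusted p = 0.014), and not in line 1, at 0.67 ± 0.37 (SE; edgeR adjusted p = 0.28), and the lines differed in it (line 1 minus line 2, -1.36 ± 0.34, SE; edgeR adjusted p = 0.043). FRZB had 9.51 and 19.8 RPKM in line 1, 2.67 and 2.15 RPKM in line 2, 19.1 RPKM in the ARID1A+/- line and 17.5 and 15.6 RPKM in control cells, so its fall over both lines, by 1.52 ± 0.26 on the log2 scale (SE; edgeR adjusted p = 0.017), stood on line 2, as the line 1 libraries lay on either side of the control. The lines differed in it by 2.59 ± 0.34 (line 1 minus line 2, SE; edgeR adjusted p = 0.0075).

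Of 13 co-receptors and planar polarity genes 1 rose and 2 fell, or 23.1%. GPR124, a co-activator of WNT7 signals, fell by 1.41 ± 0.13 (SE; edgeR adjusted p = 0.00097) and the polarity cadherin CELSR2 by 1.20 ± 0.12 (SE; edgeR adjusted p = 0.0012), while the polarity gene PRICKLE1 rose by 0.59 ± 0.12 (SE; edgeR adjusted p = 0.019), all on the log2 scale. The rise of PRICKLE1 stood on line 2, at 1.00 ± 0.13 (SE; edgeR adjusted p = 0.0046), since line 1, at 0.19 ± 0.13, was not called (SE; edgeR adjusted p = 0.38), and line 1 minus line 2 was -0.81 ± 0.13 (SE; edgeR adjusted p = 0.011). GPR124 had 4.27 and 3.88 RPKM in line 1, 2.55 and 1.64 RPKM in line 2, 14.0 RPKM in the ARID1A+/- line and 8.28 and 7.03 RPKM in control cells, with the ARID1A+/- library again above the control. Among 17 genes of the destruction complex and its transducers 2 were called, a share of 11.8% that lies near the 14.4% of all kept genes. The Dishevelled gene DVL1 fell by 0.48 ± 0.11 (SE; edgeR adjusted p = 0.027) and DACT3 rose by 0.85 ± 0.16 (SE; edgeR adjusted p = 0.015).

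Of 14 nuclear cofactors 2 were called, again near the share of all kept genes at 14.3%. Both rose, the co-repressor TLE4 by 0.69 ± 0.11 (SE; edgeR adjusted p = 0.0098) and the β-catenin adaptor BCL9L by 0.56 ± 0.15 (SE; edgeR adjusted p = 0.046) on the log2 scale. The TLE4 relative TLE2 was called in line 2, by 4.54 ± 0.74 (SE; edgeR adjusted p = 0.014), with 0.345 and 0.0560 RPKM in line 1, 2.52 and 2.81 RPKM in line 2, 0.135 RPKM in the ARID1A+/- line and 0.211 and 0.0365 RPKM in control cells. It was high in line 2 alone, and line 1 minus line 2 was -3.93 ± 0.70 (SE; edgeR adjusted p = 0.019). Of 10 further targets 3 rose and 3 fell over both lines, or 60% beside 14.4% of all kept genes. The largest changes were TBX3, at 1.70 ± 0.30 (SE; edgeR adjusted p = 0.018), MSX2, at 1.58 ± 0.39 (SE; edgeR adjusted p = 0.040), and MYC, at -1.34 ± 0.26 (SE; edgeR adjusted p = 0.018). TBX3 was called in each line alone, MSX2 in neither (edgeR adjusted p = 0.060 and 0.051). MYC was called in line 1 and not in line 2 (edgeR adjusted p = 0.062). MYC was low, with 0.354 and 0.220 RPKM in line 1, 0.656 and 0.253 RPKM in line 2 and 1.29 and 0.547 RPKM in control cells.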

How the data were processed

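RNA of 7 libraries was sequenced as single-end reads of 75 bp, per the labels' protocols, which name removal of ribosomal RNA while the molecule is labelled as polyadenylated. HISAT2 2.1.0 and the build hg19 are named in the submitters' processing notes, whereas no source used here names a counting program, an annotation or a strand setting. The authors deposited whole-number counts and RPKM values for 28517 entries, and the deposited RPKM equals the count per length and total within 0.000501%. The Wnt members and all lists were chosen with earlier results of these data known. Entries with a mean of at least 0.5 RPKM over 6 libraries (14711) were tested with edgeR 4.0.16 (R 4.3.3; TMM, robust quasi-likelihood, a term per group and 1 for the kit), with Benjamini-Hochberg adjustment over all of them. The SE is the fold change over the square root of F. The rule named all members called in any of the 4 contrasts, CTNNB1, APC, AXIN1 and LRP6, the highest 3 uncalled members of each role by control level, and up to 3 called genes per pathway list; LGR5, WNT5A, WNT10A, WNT1, WNT7A, WNT8A and TLE2 as a case of line 2 were named after their values were seen. The labels name the kit, which pairs the libraries as a batch; kit differences correlated at 0.45 to 0.63 between groups. Limma 3.58.1, on log2(RPKM + 1) computed from the deposited RPKM, and DESeq2 1.42.0 were alternatives. On simulated counts for both lines against control (14711 genes), 80% of 2-fold and 98% of larger changes (log2 of 2) were recovered, and 17 unchanged genes were called. The simulated counts held no kit difference, and their spread followed the trend over all genes. Recovery in the real counts was therefore not measured. Exon overlaps came from GENCODE on GRCh38.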

Additional observations from a re-analysis of the deposited data

Results flagged for a closer look

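In 5 members the effect of the ARID1A-/- lines against their shared control differed between the lines by the test of line 1 minus line 2 (edgeR quasi-likelihood test, log2 scale). FZD8 was at -3.05 and FZD6 at -0.91, both lower in line 1. TCF7L2 was at 1.22, DKK3 at 1.11 and FZD1 at 0.94, all higher in line 1. No group had enough libraries to look for a single library far from the others.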

How the results depend on the processing

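Every member call kept its direction in each of up to 15 alternatives in which the gene was tested. The number of members called moved by over 1.5 times when the kit term (the replicate block) was left out, to 4 of 16 over both lines, 5 of 11 in line 1, 3 of 15 in line 2 and 1 of 5 between the lines, while over all genes calls for both lines numbered 586, against 2119 with it. Leaving out 1 library at a time gave 0 to 20 members over both lines, 0 to 15 in line 1, 0 to 18 in line 2 and 1 to 9 between the lines. The count of 0 came without the SMARTer control library (edgeR; 15, 13 and 14 members had an unadjusted p under 0.05), and without the KAPA control library 3, 3 and 5 were called. Line 2 against control fell to 5 without either of its own libraries. Between the lines 9 were called without the SMARTer library of line 1, 1 and 3 without the SMARTer and KAPA libraries of line 2, and 2 without the SMARTer control. The number of calls over all kept genes also moved widely across these leave-out fits, so the swing as a whole is not particular to the members. In these fits 1 residual degree of freedom per gene remained, so the lone sample is assumed to vary like the other groups. RLE scaling, library totals, other filters, DESeq2 and limma left each count within 1.5 times. On log2(RPKM + 1) changes of low genes are smaller, NKD1 falling by 0.78 over both lines. Low counts limit the ligands most.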

Other observations

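A few pathway genes outside the members had a level in the ARID1A+/- library unlike that of all 6 other libraries. TBX3, a transcription factor and reported Wnt target, had 23.2 and 15.2 RPKM in line 1, 21.9 and 34.8 RPKM in line 2, 0.144 RPKM in the ARID1A+/- line and 6.04 and 8.38 RPKM in control cells. It was therefore high in both ARID1A-/- lines and nearly absent from the ARID1A+/- library. RSPO4, an R-spondin that potentiates Wnt signals, had 6.70 and 3.997 RPKM in line 1, 4.53 and 2.72 RPKM in line 2, 0.0112 RPKM in the ARID1A+/- line and 3.12 and 2.01 RPKM in control cells. These genes were chosen after their values were seen, and with 1 ARID1A+/- library neither was tested.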
